A study of Mus musculus with 39 samples.

Results

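The RNAs described here encode the machinery that brings newly made proteins into and across the membrane of the endoplasmic reticulum (ER) of mouse liver. They comprise the 36 genes, chosen by name, of the signal recognition particle (SRP), its receptor, the Sec61 channel and its partners, the signal peptidase, the oligosaccharyltransferase and a pair of membrane proteins of ER sheets. All 36 were present in both gradients, among 13230 genes measured in both (13982 in gradient 1 and 13634 in gradient 2). Liver of wild-type FVB female mice was homogenized without detergent, cleared of nuclei and separated by velocity sedimentation over a sucrose gradient. The RNA of each fraction listed here was sequenced. Gradient 1 gave 17 libraries, of fractions 4 to 19 and 21, and gradient 2 gave 22, of fractions 3 to 24, where a low number is the light end. These 2 gradients are independent biological replicates of the same condition, with 1 library per fraction, and the age of the mice and the number of livers per gradient are not given in the sources used here. No mutant, transgene or treatment is involved, and each comparison is between positions within the gradients.

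Proteins bound for secretion or for membranes usually start with a hydrophobic segment. SRP, a small RNA with protein subunits that resides in the cytosol, binds this segment as it leaves the ribosome and docks at the SRP receptor on the ER. The ribosome then feeds the chain into the Sec61 channel, signal peptidase removes a cleavable signal, and oligosaccharyltransferase adds sugar chains to asparagines. Most subunits of these ER complexes have hydrophobic segments of their own, whereas the SRP proteins are made on free ribosomes. Hepatocytes, which make most plasma proteins, are rich in this machinery. A tail anchor is a membrane segment at the very end of a protein, which leaves the ribosome only when synthesis is complete, and such proteins are inserted after translation.

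The coding stretch with the highest mean hydropathy over 19 codons is shown for 6 RNAs that stand for the gradient patterns described below. Capitals mark these 57 bases, and lower case marks up to 15 bases on either side. The sequences are coding exons of GENCODE M21 on GRCm38 (mm10), read 5′ to 3′, and the coordinates include any intron between the exons.
Sec61a1: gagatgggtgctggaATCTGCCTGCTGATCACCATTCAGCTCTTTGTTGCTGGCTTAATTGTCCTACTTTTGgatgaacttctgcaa
Sec61b: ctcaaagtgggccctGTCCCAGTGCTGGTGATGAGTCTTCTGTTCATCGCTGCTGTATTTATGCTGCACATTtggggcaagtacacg
Sec61g: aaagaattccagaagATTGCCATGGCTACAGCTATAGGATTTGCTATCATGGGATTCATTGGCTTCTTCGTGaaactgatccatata
Ssr1: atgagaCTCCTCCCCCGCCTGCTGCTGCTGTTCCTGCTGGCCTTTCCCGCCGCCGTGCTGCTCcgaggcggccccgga
Ost4: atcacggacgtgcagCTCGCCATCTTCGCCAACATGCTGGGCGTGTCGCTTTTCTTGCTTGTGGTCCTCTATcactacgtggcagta
Srp14: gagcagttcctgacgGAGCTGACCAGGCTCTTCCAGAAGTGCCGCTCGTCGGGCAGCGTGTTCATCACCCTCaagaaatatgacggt
For Sec61a1 the stretch lies on the minus strand at chr6:88512208-88512534 in 2 exons and holds codons 147 to 165 of 476, in a protein with 7 segments above the hydropathy cutoff of 1.6. The stretch of Sec61b lies on the plus strand at chr4:47480225-47483053 in 2 exons, and its codons 71 to 89 of 96 leave 7 codons after them. That of Sec61g lies on the minus strand at chr11:16504756-16506376 in 2 exons, with codons 36 to 54 of 68 and 14 codons after them. Both are the tail anchors of the channel. Ssr1 begins with its signal peptide, at codons 3 to 21 of 286 in 1 exon on the minus strand (chr13:37994006-37994083). Ost4, the shortest member, has its only segment at codons 7 to 25 of 37, in 1 exon on the minus strand (chr5:30907446-30907532). The mean hydropathy of these windows was 2.92 in Sec61a1, 2.55 in Sec61b, 2.24 in Sec61g, 2.39 in Ssr1 and 2.37 in Ost4. In Srp14, at chr2:118479026-118479596 on the minus strand in 3 exons, the most hydrophobic window (codons 12 to 30 of 110) reached only 0.22. All 6 SRP proteins, and among the ER members only Srpr, lacked a window at or above the cutoff.

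Values are TPM, an abundance scaled to the same total in every library, which gives the share of an RNA in its library per transcript length. The zones compared were 3, each of 4 fractions per gradient: light (4 to 7), middle (10 to 13) and dense (16 to 19). Statements on whether libraries overlap cover the 24 libraries of these zones and not the fractions between or outside them. The means of log2(TPM + 1) over a zone were tested with limma, in which the 2 gradients are the replicates, and p-values were adjusted by the Benjamini-Hochberg method over the 11754 genes whose mean TPM reached 1. Of the members, 35 passed this filter and Ckap4 did not. TPM holds no read counts, so neither the depth of a library nor counting error can be given. Since an equal mass of RNA was used for each library and totals are fixed, a change is a change of share and not of the amount of an RNA in a fraction.

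As a group the ER members were skewed to the light end, while the SRP proteins were not, and profiles differed within both groups. From the light to the middle zone, 13 of the 29 ER members tested were lower and 4 higher, and of the 6 SRP proteins 2 were higher and none lower at an adjusted p of 0.05 (1 lower, Srp54a, with the gradient as replicate block). In this contrast and for the other lists below described as having none in a direction, none passed at an unadjusted p of 0.05 in limma without the gradient as a block either. The 13 members lower were 37.1% of all 35, beside 24.1% of all genes, and the 6 higher were 17.1%, beside 23.5% of all genes. The median log2 change was -1.29 for the ER members and 0.30 for the SRP proteins, beside 0.05 for all genes. In each gradient the ER median was below the SRP median, by -1.94 in gradient 1 and -1.25 in gradient 2 (mean -1.59 ± 0.49, SD, n = 2). With the gradient as replicate block, 20 members (57.1%) were lower and 8 (22.9%) higher, beside 35% and 37.2% of all genes. Without the light zone of either gradient the number lower was 3, and without the middle zone of gradient 1 it was 6. The number higher was 2 without the light zone of gradient 1 and 3 without that of gradient 2.

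From the light to the dense zone, 16 ER members and 2 SRP proteins were lower, and 1 of each was higher. The 18 lower were 51.4% of the members tested, beside 39.6% of all genes, and the 2 higher were 5.71%, beside 22.3%. All genes had a median log2 change of -0.43 here, which was -0.05 after quantile normalization, when 3587 genes rose and 3504 fell past the threshold in place of 2616 and 4658. Relative to the median of all genes, the ER members had a median of -0.82 and the SRP proteins of 0.07. The medians of these groups differed by -1.32 in gradient 1 and -0.42 in gradient 2 (mean -0.87 ± 0.64, SD, n = 2). With the gradient as replicate block, 5 members (14.3%) were higher and 21 (60%) lower, beside 30.5% and 50% of all genes. The number higher was 4 without the dense zone of gradient 1 and 1 without the light zone of gradient 2, and the number lower was 11 without the light zone of either gradient.

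Between the middle and dense zones fewer members were called than in the other contrasts, as was true of all genes. None was higher, also at an unadjusted p of 0.05 in limma, beside 4.79% of all genes. The 6 lower (17.1%, beside 22.5% of all genes) were Srp9, Srp14, Srp19, Sec61b, Sec61g and Ost4. No member was called lower without the middle zone of either gradient, where 7 and 6 passed at an unadjusted p of 0.05. After quantile normalization 1228 genes rose and 1608 fell past the threshold, in place of 563 and 2645.

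**Figure D1:**
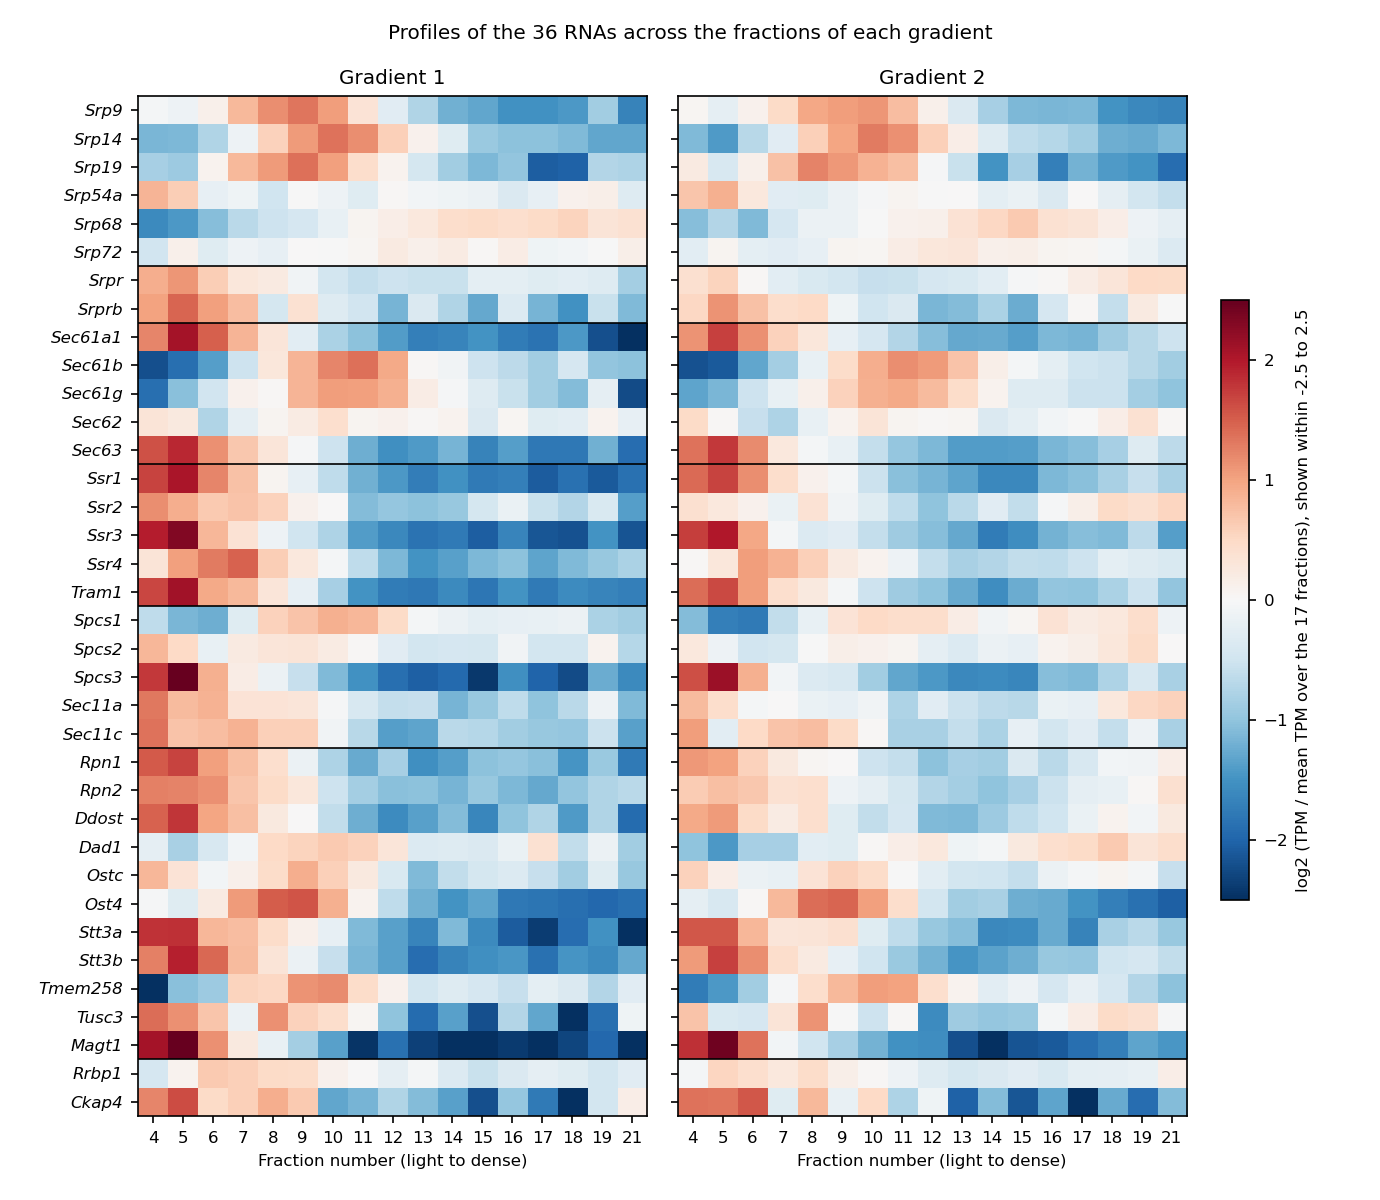
Profiles of the 36 RNAs in the 17 fractions shared by both gradients, from light (left) to dense (right); fraction 20 was not shared. Color is the log2 of TPM over the gene's mean TPM, and lines separate the SRP proteins, SRP receptor, Sec61/62/63 channel, TRAP and TRAM, signal peptidase, oligosaccharyltransferase, and the pair Rrbp1 and Ckap4. Of the members, 11 peaked at fraction 5 in both gradients, and 9 peaked between fractions 8 and 11 in both.

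The position of a profile was also summarized by its center, the TPM-weighted mean fraction number. Centers of the SRP proteins ran from 9.85 to 13.8 in gradient 1 and from 9.82 to 13.0 in gradient 2. Those of the ER members ran from 6.54 to 11.8 in gradient 1 and from 7.28 to 13.6 in gradient 2, so the ranges overlapped. In gradients 1 and 2 the median center was 9.27 and 10.8 for the ER members and 11.2 and 11.1 for the SRP proteins. For all genes whose mean TPM reached 1 it was 11.3 in both. The median ER center minus the median SRP center was -1.97 fractions in gradient 1 and -0.34 in gradient 2 (mean -1.15 ± 1.15, SD, n = 2), a difference about as large as its spread. The mean was -0.73 over all fractions of each gradient and -0.39 with log2(TPM + 1) as weights.

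Among the SRP proteins, Srp9 and Srp14, which form a dimer at the Alu end of the particle, peaked in fraction 9 or 10. Srp14 had 41.9 to 91.5 TPM in the 8 light libraries (median 53.8), 102 to 275 in the middle libraries (median 189) and 38.4 to 67.6 in the dense ones (median 46.4). Its middle libraries were thus all above both other zones, and the log2 change was 1.61 ± 0.19 (SE) from light to middle (adjusted p = 0.0021) and -1.85 ± 0.19 from middle to dense (adjusted p = 0.0070). Srp9 had 94.5 to 183 TPM in the light libraries (median 116), 62.1 to 244 in the middle (median 128) and 36.5 to 57.2 in the dense (median 39.3). Light and middle libraries of Srp9 overlapped and the dense ones lay below, with a log2 change of -1.47 ± 0.20 from light to dense (adjusted p = 0.0016). Srp19, which helps fold the SRP RNA, followed the same course, with 15.8 to 52.1 TPM in the light (median 32.9), 21.4 to 60.0 in the middle (median 35.7) and 7.07 to 17.9 in the dense libraries (median 11.5). Its log2 change from light to dense was -1.35 ± 0.21 (adjusted p = 0.0027).

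The larger SRP proteins did not share this peak. Srp68, which together with Srp72 binds the SRP RNA as a dimer, had 26.8 to 50.3 TPM in the light libraries (median 32.7), 59.1 to 96.1 in the middle (median 74.0) and 54.6 to 119 in the dense (median 88.7). Every light library was below every other, with log2 changes of 1.10 ± 0.27 to the middle zone (adjusted p = 0.019) and 1.30 ± 0.27 to the dense zone (adjusted p = 0.0077). Srp68 was the only SRP protein called higher in the dense zone. Srp72 stayed within 66.8 to 118 TPM over all zones, and its log2 change from light to middle was 0.33 ± 0.15 (adjusted p = 0.11, and 0.026 with the gradient as replicate block). Over the 17 fractions the profiles of Srp68 and Srp72 correlated with an R of 0.56 and 0.64 in gradients 1 and 2, and those of Srp9 and Srp14 with 0.74 and 0.85. These correlations, and others below, describe 17 neighboring fractions of the same gradient and carry no test.

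Srp54a, the GTPase that binds signal sequences, peaked at the light end, with 18.2 to 42.5 TPM in the light libraries (median 29.9) and 16.2 to 23.4 in the dense (median 18.9). Zones overlapped, and the change from light to dense was -0.49 ± 0.19 (adjusted p = 0.068, and 0.012 with the gradient as replicate block). The blocked fit also called Srp54a lower in the middle than the light zone (-0.38 ± 0.19, adjusted p = 0.15 without and 0.033 with the block). Its copies Srp54b and Srp54c, which are not members, were higher in the dense zone, by 2.45 ± 0.22 (adjusted p = 5.1e-04) and 1.80 ± 0.31 (adjusted p = 0.0040). Srp54a shares 72.5% of its 31-base words with Srp54b, so reads may have been divided between these genes and the values of all 3 are uncertain.

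**Figure D2:**
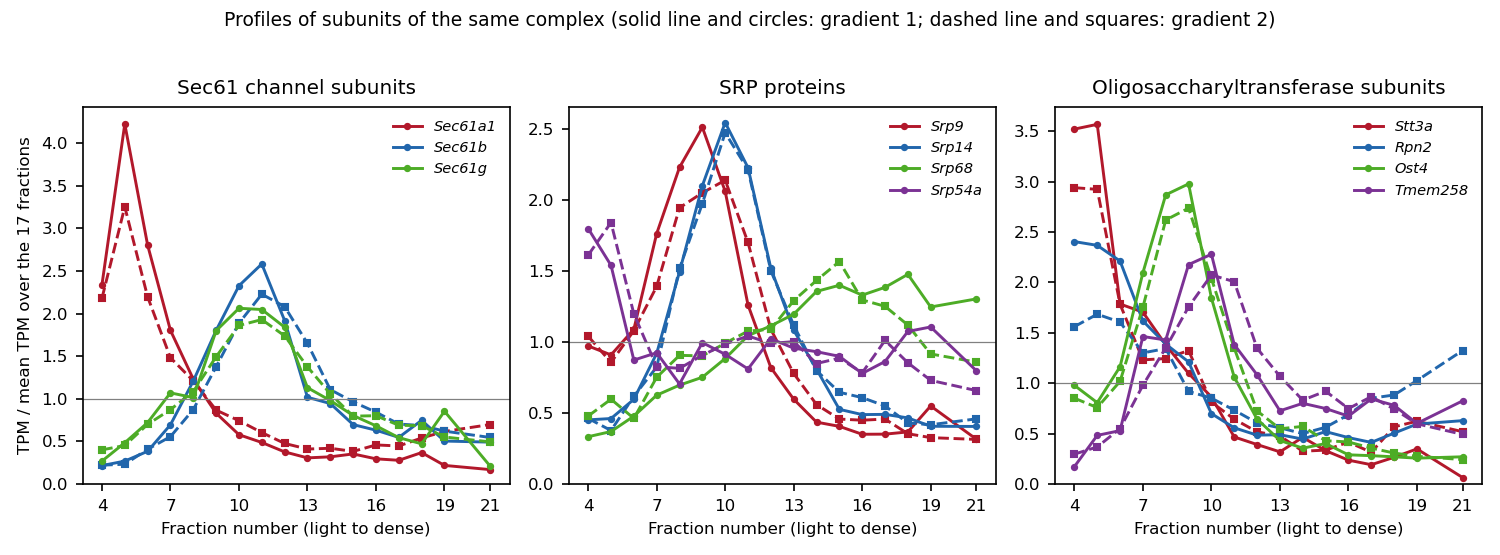
TPM divided by its mean over the 17 shared fractions for subunits of the Sec61 channel, the SRP and the oligosaccharyltransferase, with solid lines for gradient 1 and dashed lines for gradient 2. Sec61a1 peaks at fraction 5 in both gradients while Sec61b peaks at fraction 11, Srp14 peaks at fraction 10, Srp68 peaks at fraction 18 in gradient 1 and 15 in gradient 2, and Ost4 peaks at fraction 9.

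The SRP receptor is made of Srpr, a GTPase held at the membrane by its partner, and Srprb, which spans the membrane. Srprb had 6.40 to 13.4 TPM in the light libraries (median 8.55), 1.69 to 4.78 in the middle (median 2.92) and 1.31 to 7.19 in the dense (median 3.51). It was lower in the middle zone by a log2 change of -1.29 ± 0.39 (adjusted p = 0.039) and in the dense zone by -1.16 ± 0.39 (adjusted p = 0.044). Both calls were lost after quantile normalization (changes of -1.13 and -0.66, adjusted p = 0.068 and 0.22), and with a pseudocount of 0.1 (0.051 and 0.052), where the changes were -1.53 and -1.40. The call to the middle zone was also lost with wider zones (-1.02, adjusted p = 0.069). Srpr had 52.3 to 114 TPM in the light libraries (median 79.5), 28.2 to 59.9 in the middle (median 41.7) and 34.1 to 110 in the dense (median 57.4). Its change from light to dense was -0.99 in gradient 1 and 0.08 in gradient 2, and was not called (-0.46 ± 0.51, adjusted p = 0.46). From light to middle Srpr changed by -0.94 ± 0.51 (adjusted p = 0.18, and 0.021 with the gradient as replicate block). In gradient 2 it reached 114 TPM both in fraction 5 and in fraction 20, which gradient 1 lacks. Srpr shares 25.7% of its 31-base words with a pseudogene and Srprb 20.5% with an overlapping gene, which were not analysed here.

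The subunits of the Sec61 channel did not travel together. Sec61a1, the pore, had 70.7 to 167 TPM in the light libraries (median 111), 12.1 to 38.2 in the middle (median 21.9) and 8.59 to 31.7 in the dense (median 18.7). The light libraries were all above the others, and the mean of the light zone was 9.60-fold that of the dense zone in gradient 1 and 4.41-fold in gradient 2. The log2 change was -2.27 ± 0.43 to the middle zone (adjusted p = 0.0082) and -2.58 ± 0.43 to the dense zone (adjusted p = 0.0034). Sec61b, a tail-anchored subunit, went the other way, with 67.4 to 260 TPM in the light libraries (median 112), 380 to 964 in the middle (median 653) and 188 to 279 in the dense (median 211). Its middle zone was 5.01-fold and 5.53-fold above the light zone in gradients 1 and 2, and every middle library was above every light and dense one. The log2 change of Sec61b was 2.47 ± 0.19 from light to middle (adjusted p = 0.0012), 0.93 ± 0.19 from light to dense (adjusted p = 0.0082) and -1.54 ± 0.19 from middle to dense (adjusted p = 0.0071). Sec61g, the other tail-anchored subunit, had 41.2 to 186 TPM in the light (median 103), 173 to 410 in the middle (median 314) and 72.1 to 170 in the dense libraries (median 124). Its light and dense libraries overlapped, and it was higher in the middle than in the light zone by 1.58 ± 0.30 (adjusted p = 0.0085).

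Profiles of Sec61b and Sec61g correlated with an R of 0.95 in gradient 1 and 0.96 in gradient 2, whereas those of Sec61a1 and Sec61b gave -0.38 and -0.56. The profile of Sec61b was also near that of Srp14, the cytosolic SRP protein, with an R of 0.95 and 0.83. Sec61b shares 21.1% and Sec61g 15.7% of their 31-base words with another gene or pseudogene not analysed here. Of the partners of the channel, Sec63, which recruits the chaperone BiP, resembled Sec61a1, with 19.1 to 53.9 TPM in the light libraries (median 36.7) and 3.56 to 12.7 in the dense (median 6.28). Its light libraries lay above all others, and the log2 change was -2.24 ± 0.35 from light to dense (adjusted p = 0.0028). Sec62, which acts with Sec63 in post-translational import, ranged from 15.3 to 48.0 TPM over the 3 zones and was called in no contrast. Its change from light to dense was 0.15 ± 0.28 (adjusted p = 0.65). Profiles of Sec62 and Sec63 correlated with an R of 0.20 and 0.05.

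TRAP, a complex beside the channel with 4 subunits (Ssr1 to Ssr4), and Tram1, which helps nascent chains insert, had the lowest median change to both other zones among the groups of members. Of these 5, 3 (60%, beside 24.1% of all genes) were lower in the middle and 4 (80%, beside 39.6%) in the dense zone, with a median log2 change of -2.22 to the middle and -2.43 to the dense zone. Ssr3 had 143 to 595 TPM in the light libraries (median 361), 31 to 97.5 in the middle (median 63.2) and 24.8 to 94.6 in the dense (median 52.5). No light library of Ssr3 fell into the range of the others, and the change from light to dense was -2.67 ± 0.47 (adjusted p = 0.0043). Ssr1 had 15.5 to 42.6 TPM in the light libraries (median 29.7) and 2.164 to 8.78 in the dense (median 4.43), a change of -2.43 ± 0.45 (adjusted p = 0.0053). Tram1 had 87.5 to 231 TPM in the light libraries (median 153) and 15.7 to 46.1 in the dense (median 25.8), a change of -2.43 ± 0.41 (adjusted p = 0.0039). Profiles of Ssr1 and Sec61a1 correlated with an R of 0.98 and 0.99.

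The other TRAP subunits were less skewed. Ssr4 had 104 to 241 TPM in the light (median 186) and 33.3 to 98.5 in the dense libraries (median 59.3), with a peak at fractions 7 and 6, and was lower in the dense zone by -1.54 ± 0.46 (adjusted p = 0.029). Its change to the middle zone was -1.37 ± 0.46 (adjusted p = 0.052, and 0.0082 with the gradient as replicate block). Ssr2 had 36.2 to 56.4 TPM in the light (median 45.5), 11.8 to 33.0 in the middle (median 22.7) and 15.2 to 56.7 in the dense libraries (median 31.1). From light to dense Ssr2 changed by -1.27 in gradient 1 and 0.10 in gradient 2, so it was not called (adjusted p = 0.32). Its change to the middle zone was -1.17 ± 0.48 (adjusted p = 0.091, and 0.022 with the block). Profiles of Ssr1 and Ssr2 correlated with an R of 0.89 in gradient 1 and 0.39 in gradient 2.

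The signal peptidase has the catalytic subunits Sec11a and Sec11c and the accessory subunits Spcs1 to Spcs3, and its RNAs were spread over all zones. Spcs3 was the most light-skewed, with 19.3 to 118 TPM in the light libraries (median 53.7), 4.10 to 14.6 in the middle (median 8.32) and 3.57 to 20.3 in the dense (median 9.83). It was lower in the middle zone by -2.56 ± 0.53 (adjusted p = 0.011) and in the dense zone by -2.39 ± 0.53 (adjusted p = 0.010). Spcs1 was the reverse, with 19.3 to 43.1 TPM in the light libraries (median 24.7), 43.3 to 93.0 in the middle (median 81.6) and 26.1 to 89.4 in the dense (median 58.3). Its middle libraries were all above the light ones, by a log2 change of 1.48 ± 0.39 (adjusted p = 0.026). To the dense zone Spcs1 changed by 1.02 ± 0.39 (adjusted p = 0.066, and 0.016 with the gradient as replicate block).

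For Spcs2 the zones overlapped, with 16.2 to 33.5 TPM in the light, 13.4 to 30.1 in the middle and 13.4 to 38.8 in the dense libraries, and no contrast was called. Sec11a had 25.9 to 51.3 TPM in the light libraries (median 36.2) and 10.2 to 40.4 in the dense (median 21.5), a change of -0.78 ± 0.39 (adjusted p = 0.13, and 0.049 with the block). Sec11c had 25.9 to 64.7 TPM in the light libraries (median 39.4) and 9.70 to 28.7 in the dense (median 16.9), a change of -1.25 ± 0.47 (adjusted p = 0.061, and 0.0037 with the block). From light to middle the blocked fit called both lower as well (adjusted p = 0.031 for Sec11a and 0.0036 for Sec11c). Profiles of these catalytic paralogs correlated with an R of 0.95 in gradient 1 and 0.35 in gradient 2.

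**Figure D3:**
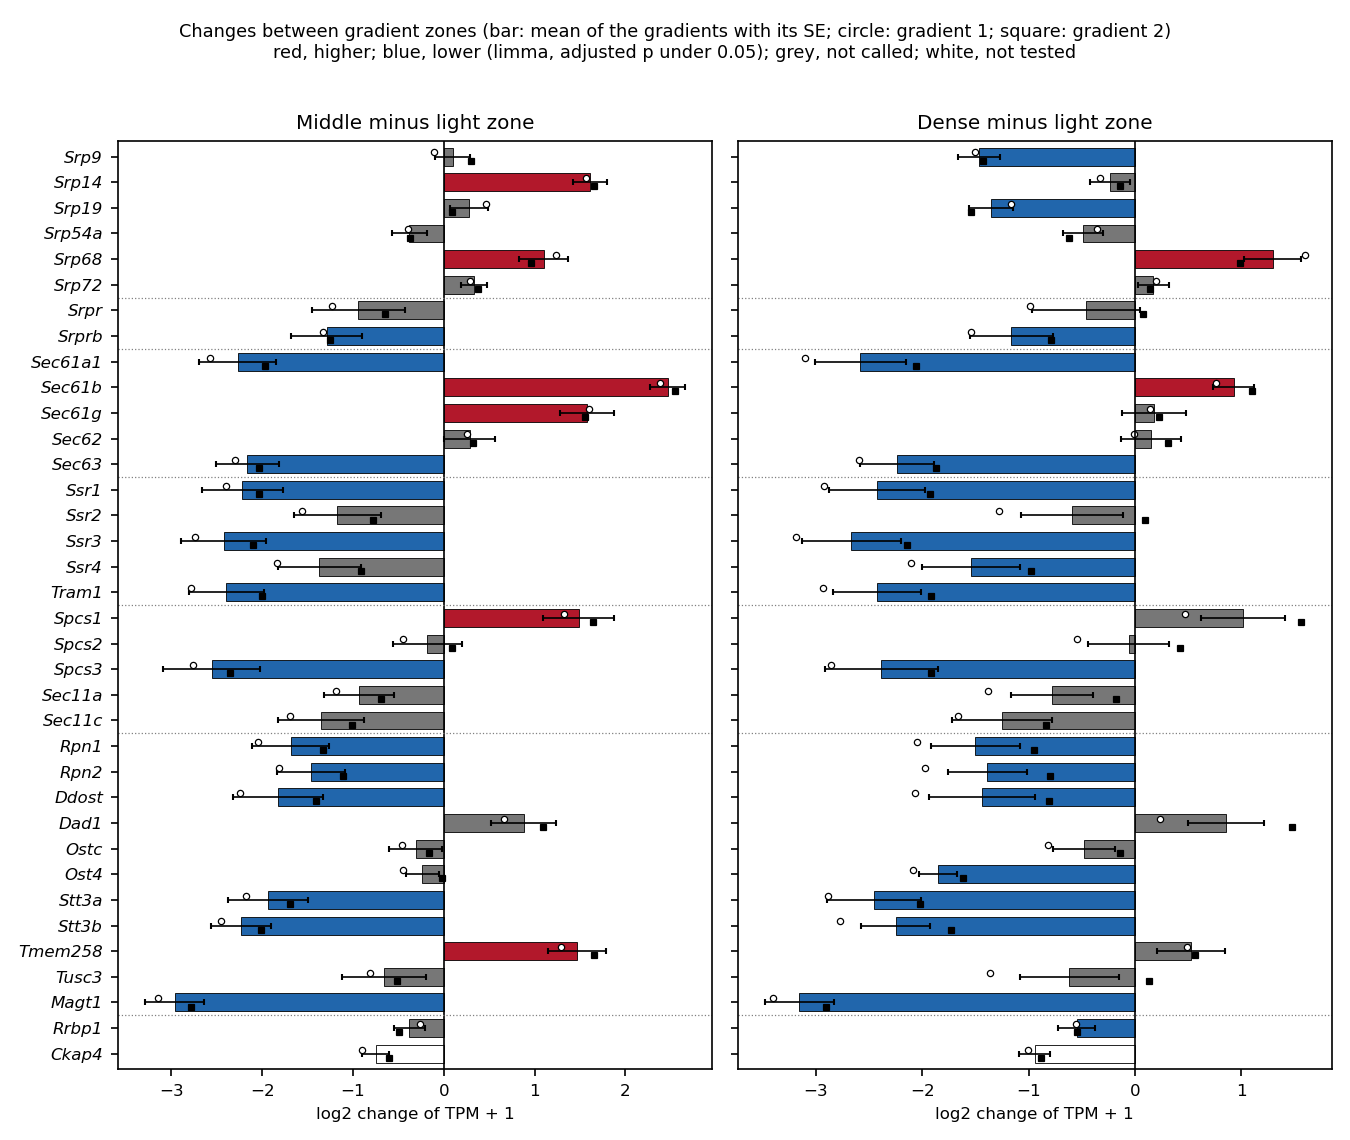
Log2 change of TPM + 1 from the light to the middle zone (left) and from the light to the dense zone (right) for the 36 members. Bars are the mean of both gradients with the SE from limma, circles are gradient 1 and squares gradient 2. Red and blue bars passed an adjusted p of 0.05, grey bars did not, and Ckap4 (white) was below the filter; of the 29 ER members tested, 13 were lower in the middle and 16 in the dense zone.

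Oligosaccharyltransferase had the most members, 11, of which 6 were lower and 1 higher in the middle zone, and 7 lower and none higher in the dense zone. These were 54.5% lower and 9.09% higher from light to middle, beside 24.1% and 23.5% of all genes. From light to dense they were 63.6% lower and none higher, beside 39.6% and 22.3% of all genes. The blocked fit called 2 higher in the dense zone, Tmem258 and Dad1. Stt3a and Stt3b are alternative catalytic subunits, the former acting beside the channel and the latter also on chains the former missed. Stt3a had 18.4 to 45.4 TPM in the light libraries (median 32.8) and 2.07 to 9.63 in the dense (median 4.32). Stt3b had 28.7 to 75.5 TPM in the light libraries (median 47.2) and 5.38 to 16.0 in the dense (median 9.03). The light libraries of both lay above the middle and dense ones, with changes from light to dense of -2.45 ± 0.44 (adjusted p = 0.0046) and -2.25 ± 0.33 (adjusted p = 0.0022). Their profiles correlated with an R of 0.93 in gradient 1 and 0.94 in gradient 2.

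Magt1 and Tusc3 are oxidoreductase subunits that each join the Stt3b form. Magt1 was the most light-skewed of all members, with 15.5 to 87.6 TPM in the light libraries (median 48.5), 2.38 to 7.17 in the middle (median 4.32) and 1.97 to 6.53 in the dense (median 3.57). Its light zone was 16.7-fold its dense zone in gradient 1 and 10.3-fold in gradient 2, and the log2 change was -3.16 ± 0.33 (adjusted p = 7.6e-04). Tusc3 was low, with 1.43 to 4.20 TPM in the light and 0 to 3.48 in the dense libraries. It changed by -1.36 in gradient 1 and 0.13 in gradient 2 from light to dense and was not called (adjusted p = 0.29), and after quantile normalization the mean was 0.07. Their profiles correlated with an R of 0.75 in gradient 1 and 0.10 in gradient 2.

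The scaffold subunits Rpn1 (ribophorin I), Rpn2 (ribophorin II) and Ddost were lower in both other zones than in the light zone. Rpn1 had 11.9 to 22.7 TPM in the light libraries (median 17.4) and 2.54 to 9.54 in the dense (median 4.99), a change of -1.50 ± 0.42 (adjusted p = 0.024). Rpn2 had 22.5 to 34.2 TPM in the light libraries (median 28.5) and 5.88 to 17.8 in the dense (median 10.2), a change of -1.39 ± 0.37 (adjusted p = 0.021). Ddost had 20.8 to 42.3 TPM in the light libraries (median 30.5) and 4.62 to 20.3 in the dense (median 10.4), a change of -1.43 ± 0.50 (adjusted p = 0.048). Light and dense libraries of these 3 RNAs did not overlap. After quantile normalization the calls from light to dense were lost, at changes of -1.11, -1.11 and -1.15 (adjusted p = 0.073 for Rpn1, 0.059 for Rpn2 and 0.11 for Ddost), while those from light to middle were kept. The light to dense call of Ddost was also lost under 3 other alternatives (changes of -1.53 to -1.52, adjusted p = 0.051 to 0.065). Profiles of Rpn1 and Ddost correlated with an R of 0.99 and 0.96.

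The small subunits of the enzyme differed among themselves. Ost4 peaked at fraction 9 in both gradients, at 736 and 659 TPM. It had 183 to 518 TPM in the light libraries (median 244), 107 to 491 in the middle (median 218) and 63.6 to 101 in the dense (median 70.7). Light and middle libraries of Ost4 overlapped and the dense ones lay below, by -1.85 ± 0.18 from the light zone (adjusted p = 6.4e-04) and -1.61 ± 0.18 from the middle zone (adjusted p = 0.0070). Tmem258 had 17.3 to 146 TPM in the light (median 51.6), 72.6 to 283 in the middle (median 165) and 60.1 to 118 in the dense libraries (median 83.0). It was higher in the middle than in the light zone by 1.47 ± 0.32 (adjusted p = 0.013). With the gradient as replicate block Tmem258 was also called higher in the dense than the light zone (0.53 ± 0.32 without the block, adjusted p = 0.20, and 0.011 with it) and lower in the dense than the middle zone (-0.94 ± 0.32, adjusted p = 0.080, and 0.0026 with it).

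Dad1 had 39.6 to 72.9 TPM in the light (median 58.9), 60.5 to 128 in the middle (median 112) and 50.3 to 169 in the dense libraries (median 117). From light to dense Dad1 changed by 0.24 in gradient 1 and 1.48 in gradient 2 (0.86 ± 0.36, adjusted p = 0.081, and 0.041 with the block), and from light to middle by 0.88 ± 0.36 (adjusted p = 0.090, and 0.042 with the block). For Ostc the zones overlapped, with 45.8 to 87.8 TPM in the light and 26.2 to 62.5 in the dense libraries, and no contrast was called.

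Rrbp1, a ribosome-binding protein, and Ckap4, which shapes ER sheets, complete the set. Rrbp1 had 30.8 to 65.9 TPM in the light (median 58.1), 33.6 to 46.8 in the middle (median 40.6) and 30.2 to 39.9 in the dense libraries (median 35.3). It was lower in the dense than the light zone by -0.55 ± 0.17 (adjusted p = 0.034, and 0.11 after quantile normalization), beside a median of -0.43 for all genes. Its change to the middle zone was -0.38 ± 0.17 (adjusted p = 0.12, and 0.026 with the gradient as replicate block). In gradient 2 Rrbp1 was highest in fraction 23, and fractions 22 to 24 averaged 60.5 TPM. Ckap4 was below the filter, with 0.44 to 2.41 TPM in the light and 0 to 0.57 in the dense libraries.

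Grouped by how the protein meets the membrane, the 8 members with a cleaved signal peptide had a median log2 change of -1.58 from light to middle, with 5 lower (62.5%) and none higher. The 12 with several membrane segments had a median of -1.12, with 6 lower (50%) and 2 higher (16.7%), and the 6 tested with an uncleaved segment near the N terminus a median of -1.11, with 2 lower (33.3%) and none higher. All genes had a median of 0.05 in this contrast, with 24.1% lower and 23.5% higher. With the gradient as replicate block 7 of 8, 6 of 12 and 5 of 6 were lower, beside 35% of all genes. The order of the classes by this share thus depends on the fit. Both tail-anchored members were higher in the middle zone, and their median was 2.02. These classes were assigned from general knowledge of the proteins.

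Coding length also differed between these RNAs. The 7 ER members of under 150 codons, a limit chosen after the values were seen, were Sec61b, Sec61g, Spcs1, Dad1, Ostc, Ost4 and Tmem258, of 37 to 149 codons. Their centers had a median of 11.7 in gradient 1 and 11.8 in gradient 2, beside 8.98 and 10.6 for the 23 ER members of 172 to 1464 codons. The ranges of the centers, 9.33 to 11.8 and 6.54 to 11.8 in gradient 1, overlapped. Across the 30 ER members the log2 of coding length correlated with the center with an r of -0.40 in gradient 1 and -0.32 in gradient 2 (Spearman rho -0.43 and -0.33). Across 10552 genes with a coding length, of 11371, r was 0.13 in both gradients. Across the 6 SRP proteins r was 0.85 and 0.78. With transcript length in place of coding length, r was -0.53 and -0.50 across the ER members, 0.57 and 0.54 across the SRP proteins, and also negative across all genes (-0.12 and -0.15). Genes are not independent replicates, and all of these values come from the same libraries.

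**Figure D4:**
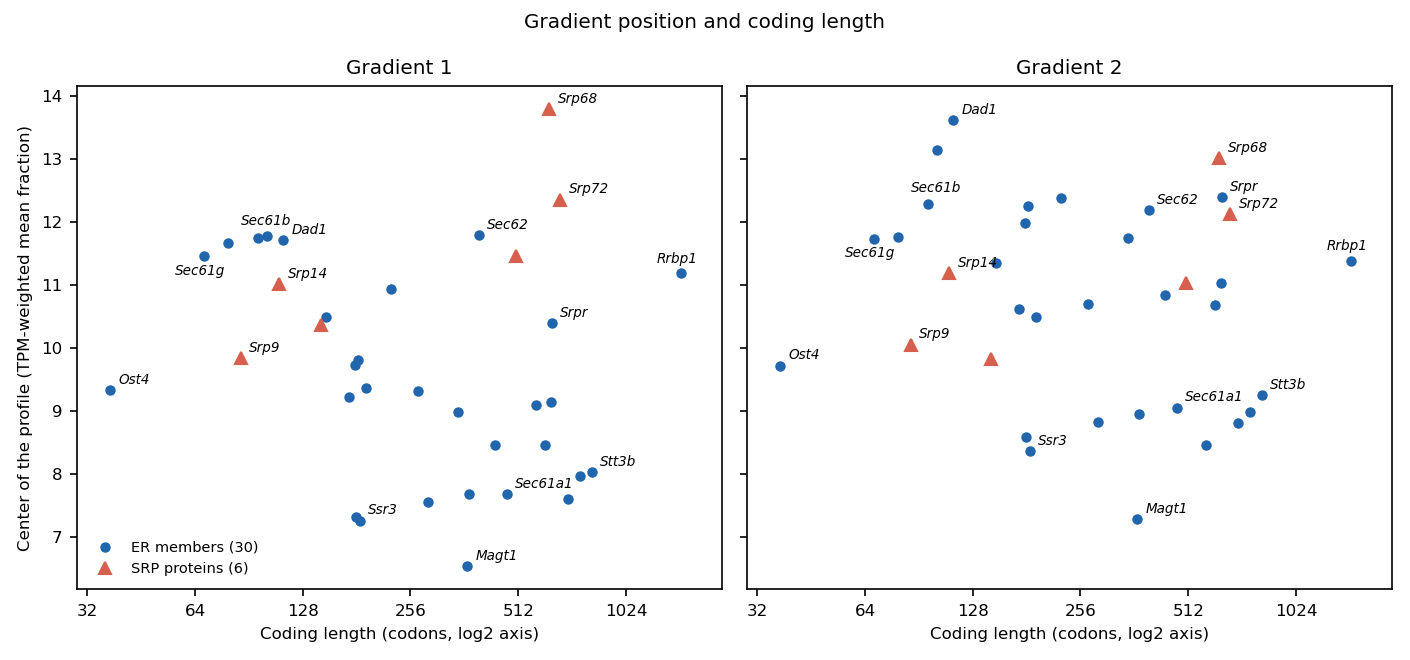
Center of each member's profile (TPM-weighted mean fraction number) against its coding length in codons on a log2 axis, for gradient 1 (left) and gradient 2 (right). Circles are the 30 ER members and triangles the 6 SRP proteins; the 7 shortest ER members have centers of 9.33 to 11.8 in gradient 1, and the lowest center in both gradients is that of Magt1.

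In level, which TPM gives per transcript length, the same complexes were uneven. The mean over the 17 shared fractions was 373 TPM in gradient 1 and 303 in gradient 2 for Sec61b, 153 and 212 for Sec61g, and 39.2 and 51.3 for Sec61a1. Ost4 followed Sec61b among all members, at 247 and 241 TPM, whereas Stt3a had 10.8 and 15.5 and Rpn1 7.05 and 9.98. The SRP proteins lay between 20.8 TPM (Srp54a) and 104 TPM (Srp9) in gradient 1. Ranks 2 and 3 by mean level, Ost4 and Sec61g, did not overlap between gradients, while Srp9 and Srp14, ranks 6 and 7, did, and the lowest was Ckap4 at 0.78 and 0.54.

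Profiles of the members agreed between the gradients with a median R of 0.90, beside 0.90 for all genes whose mean TPM reached 1. Of the 36, 18 had an R of at least 0.9 and 5 had an R under 0.5. These 5 were Dad1 (0.05), Spcs2 (0.25), Ssr2 (0.35), Srpr (0.42) and Tusc3 (0.43). In each of them the dense zone of gradient 2 was above that of gradient 1, by zone means of 149 against 71.8 TPM for Dad1, 33.3 against 15.9 for Spcs2, 48.6 against 18.6 for Ssr2, 93.4 against 35.1 for Srpr and 3.01 against 0.51 for Tusc3. The summed TPM of the ER members in the dense libraries was likewise 878 to 935 in gradient 1 and 1436 to 1506 in gradient 2, while in the light libraries it was 1866 to 2455 and 2058 to 2511. Why the gradients differ there was not tested.

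Related genes outside the set were described by lists, beside 39.6% of all genes lower and 22.3% higher from light to dense. With the gradient as replicate block, where 50% of all genes were lower and 30.5% higher, 3 of the other translocon genes, 7 of the ER membrane protein complex, 15 of the chaperones, 14 of the secreted proteins and all 4 sinusoidal endothelial markers listed below were lower. Among 5 other translocon and oligosaccharyltransferase genes 2 (40%) rose and 2 (40%) fell in this contrast, with Tram2 lower by -1.14 ± 0.36 (adjusted p = 0.034) and the copies of Srp54a higher. Of 6 genes of the GET pathway, which inserts tail-anchored proteins, 3 (50%) were higher and 1 (16.7%, or 2 genes in the blocked fit) lower (median 0.28). Bag6, which captures tail anchors in the cytosol, was higher by 2.28 ± 0.23 (adjusted p = 6.8e-04), and Wrb, part of the receptor in the ER membrane, was lower by -1.59 ± 0.22 (adjusted p = 0.0018). Of 10 subunits of the ER membrane protein complex, another insertase, 3 (30%) were higher and 6 (60%) lower (median -1.01), from Emc2, a cytosolic subunit, at 1.88 ± 0.19 (adjusted p = 7.4e-04) to Mmgt1 at -2.97 ± 0.36 (adjusted p = 0.0012). Of 7 multipass translocon factors 3 (42.9%, near the share of all genes) were lower and none higher (4 lower and 1 higher with the gradient as replicate block), led by Nomo1 at -2.17 ± 0.25 (adjusted p = 0.0010).

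Lumenal chaperones and folding enzymes of the ER were lower in the dense zone in 13 of 16 genes (81.2%, median -1.97), led by Canx, the membrane-bound lectin chaperone calnexin, at -2.90 ± 0.33 (adjusted p = 9.9e-04). Of 20 secreted plasma proteins 13 (65%) were lower and 1 (5%) higher (median -1.72), from Apoa2 at 1.25 ± 0.40 (adjusted p = 0.038) to Apob at -3.72 ± 0.29 (adjusted p = 3.8e-04). The median of this list was -2.38 in gradient 1 and -0.83 in gradient 2. All 14 core proteasome subunits, which are cytosolic, were higher (median 2.70), with the largest rise in Psmb3 (3.54 ± 0.25, adjusted p = 3.3e-04). Profiles of a pair of ER members correlated with a median R of 0.70 in gradient 1 and 0.38 in gradient 2 over 435 pairs, those of a pair of SRP proteins with -0.17 and 0.08 over 15, and those of a pair of proteasome subunits with 0.94 in both over 91.

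All 8 hepatocyte markers were in both tables, with a summed TPM of 9734 to 59721 in gradient 1 and 15898 to 42681 in gradient 2. From light to dense 3 of them (37.5%) were higher and 3 (37.5%) lower. Their median log2 change was 0.07 in the fit to both gradients, but -0.78 in gradient 1 and 0.92 in gradient 2. Of other liver cell markers tested, 3 of 5 Kupffer cell (60%), 3 of 4 sinusoidal endothelial (75%) and 4 of 5 stellate cell markers (80%) were lower. None of these was higher in the dense than the light zone, beside 39.6% of all genes lower and 22.3% higher. Of the secreted plasma proteins above, 65% were lower. Summed over the list, Kupffer cell markers had 132 to 184 TPM in the light and 55.6 to 79.3 in the dense libraries, sinusoidal endothelial markers 34.8 to 68.8 and 15.1 to 33.9, and stellate cell markers 48.1 to 92.7 and 13.8 to 26.7. Of the 3 cholangiocyte markers tested none was called in either direction, with a median of 0.22, and the blocked fit called 1 higher. Of 5 acinar markers only 1 was in both tables, and it was lower. Of 5 erythroid markers 2 were in both tables, of which 1 was lower and 1 was not called, or called higher in the blocked fit. Most genes of these lists were thus missing. Nuclear-retained RNAs were also light, with Malat1 lower in the dense zone by -4.11 ± 0.41 (adjusted p = 6.6e-04). Of 5 plasma and B cell markers none was in both tables, so none was tested. Of these, 1 was listed in gradient 1, at 1.27 TPM or less, and the other 4 were listed in neither gradient. The part of these cells and of nuclear RNA in the profiles of the members was not tested.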

How the data were processed

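RNA was measured in 39 libraries of 2 gradients. The authors made stranded libraries from 500 ng of RNA depleted of ribosomal RNA, converted reads with bcl2fastq 2.16.0.10, pseudo-aligned them with Kallisto to RefSeq transcripts of mm10, and deposited TPM by gene symbol; the version of Kallisto, its strand option and the summing of transcripts to genes are not given in the sources used here. Members and lists were chosen with earlier results of these data known. Every member is named. From the lists of related genes, comparison proteins and nuclear-retained RNAs, the largest called rise and fall between light and dense zones are named, as are copies of members. Cell type markers are described by counts, sums and medians only.

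From the deposited TPM, means of log2(TPM + 1) over the 4 fractions of a zone were fitted with limma 3.58.1 (eBayes with trend, R 4.3.3) on 6 zone means without a block, for 11754 genes whose mean TPM over 24 libraries reached 1. Fold changes on this scale understate those of low genes. P-values measure only the spread between these 2 gradients. The 3 zones of a gradient share a homogenate, which pairs them: deviations of the gradients correlated across genes between light and middle (r = 0.665), light and dense (r = 0.540) and middle and dense zones (r = 0.798), so the gradient was also fitted as a replicate block. The limma script was also run on simulated data, with independent noise in each zone mean, so that run does not cover the pairing of zones. Alternatives were a pseudocount of 0.1, other filters, quantile normalization, TPM rescaled without the 50 most abundant genes, other zone borders and leaving out each zone mean. Coding sequences and coordinates came from GENCODE M21 (GRCm38), principal transcripts, and mean hydropathy was computed over 19 codons on the Kyte-Doolittle scale. Members with an exon that overlaps an exon of another protein-coding gene on the opposite strand were Srpr, Spcs1, Spcs3, Rpn2, Ost4 and Tmem258. Exons of Srprb and Sec11a overlap those of such a gene on the same strand. Python 3.11.15 was used with Biopython 1.88, pandas 2.3.3, NumPy 2.4.6 and SciPy 1.17.1. Hydropathy was computed from the translated coding sequences. Protein measurements were not analysed here.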

Additional observations from a re-analysis of the deposited data

How the results depend on the processing

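With the gradient as replicate block, 20 members were lower in the middle than the light zone in place of 13, and 5 higher in the dense than the light zone in place of 2, while over all genes these calls went from 2827 to 4109 and from 2616 to 3589. This paired fit gave 16 further calls over the 3 contrasts and lost none. With the inner fractions of each zone only, 4 members were higher in the dense than the light zone. Leaving out each zone mean in turn gave 2 to 7 members higher and 3 to 18 lower in the middle than the light zone, 1 to 4 higher and 11 to 23 lower in the dense than the light zone, and 0 to 7 lower and none higher in the dense than the middle zone; the zone left with 1 library mean is assumed to vary like the others. In each gradient alone, the ER median minus the SRP median was -1.94 to -1.25 from light to middle, -1.32 to -0.42 from light to dense and -1.97 to -0.34 fractions for the centers; for the centers, the mean of -1.15 became -0.73 over all fractions and -0.39 with log2(TPM + 1) weights. The median agreement of profiles between gradients fell to 0.80 and 0.76 when gradient 2 was shifted by 1 fraction to the dense or the light side. Of 831 member changes under the other alternatives, 763 kept their direction and call, 24 gained and 12 lost the call, and 32, called in neither fit, changed sign; of 630 with a zone mean left out, 472 kept both, 24 gained and 78 lost the call and 56 uncalled changes changed sign. No called change reversed. Quantile normalization turned the sign of 14 uncalled changes between the middle and dense zones. The cause of these differences was not tested. Depth is unknown, so the counting error behind Tusc3, Ckap4 and Srprb, the lowest members, could not be given.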
